A study of Saccharomyces cerevisiae with 12 samples.

Results

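Transcript levels of a budding yeast (Saccharomyces cerevisiae) strain lacking SAC3 were set against those of a strain lacking CDK8, whose standard gene name is SSN3. The comparison takes 6 of the 12 RNA sequencing samples of the study, 3 of the sac3∆ strain and 3 of the cdk8∆ strain, and the 6124 of 7126 features whose mean was at least 1 RPKM (reads per kilobase of exon and mega-read mapped) over the 12 samples. The sac3∆ group and the cdk8∆ group both carried the empty plasmid pRS315, a LEU2 vector, so neither held tagged SAC3, and the cdk8∆ strain kept its native SAC3. Of the other 2 groups, described here only beside the comparison, wild type means sac3∆ cells with 13MYC-SAC3 on pRS315, and R288D means sac3∆ cells whose pRS315 encodes Sac3 R288D. All cells grew in medium lacking leucine (SDC-Leu), their RNA was extracted with hot phenol, and ribosomal RNA was removed before library preparation. The strain background, the number of clones per genotype and whether replicates were separate cultures are not stated in the labels, so p-values measure only the spread between these samples.

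Sac3 is the scaffold of TREX-2, a complex at the inner face of the nuclear pore that links transcription by RNA polymerase II to mRNA export and whose other subunits are Thp1, Sem1, Sus1 and Cdc31. Cdk8 is the kinase of the Mediator kinase module, which also holds cyclin C (Ssn8), Med12 (Srb8) and Med13 (Ssn2), and which binds Mediator reversibly and is known in yeast for restraining genes of alternative carbon sources, stress and filamentous growth and for phosphorylating transcription factors such as Gcn4 and Msn2. Sac3 is known to contact Mediator, and the labels name a substitution in Sac3 alongside both deletions.

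Several gene groups described below are targets of well-known transcription factors, and the promoters of 5 genes are printed because they hold the elements of 4 of them. Each sequence runs 5′ to 3′ on the gene's own strand from 250 bases before to 50 bases after the annotated gene start, taken from the RefSeq R64 genome, and capitals mark the match. In order, the capitals are the palindromic Zap1 element of the zinc regulon with any base at its centre, AGGGG (the stress response element bound by Msn2 and Msn4), GGTGGCAAA (the Rpn4 proteasome element) and CGGNNNTNA (one arm of the Oaf1 and Pip2 oleate element), each searched on both strands, so that CCCCT and TTTGCCACC are matches on the other strand.
ZRT1 chrVII:20728-21027: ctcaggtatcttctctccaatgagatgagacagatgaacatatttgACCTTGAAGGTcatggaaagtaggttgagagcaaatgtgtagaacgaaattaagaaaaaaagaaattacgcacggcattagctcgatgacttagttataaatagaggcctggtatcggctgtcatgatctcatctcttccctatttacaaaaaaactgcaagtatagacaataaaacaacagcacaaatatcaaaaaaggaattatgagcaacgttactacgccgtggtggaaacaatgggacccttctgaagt
HSP12 chrVI:107006-107305: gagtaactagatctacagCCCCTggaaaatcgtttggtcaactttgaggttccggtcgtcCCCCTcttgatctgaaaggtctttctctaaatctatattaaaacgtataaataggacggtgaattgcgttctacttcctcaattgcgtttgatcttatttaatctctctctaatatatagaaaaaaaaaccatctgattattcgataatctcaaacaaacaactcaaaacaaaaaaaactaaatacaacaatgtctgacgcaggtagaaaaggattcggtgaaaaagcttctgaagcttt
PRE4 chrVI:249817-250116: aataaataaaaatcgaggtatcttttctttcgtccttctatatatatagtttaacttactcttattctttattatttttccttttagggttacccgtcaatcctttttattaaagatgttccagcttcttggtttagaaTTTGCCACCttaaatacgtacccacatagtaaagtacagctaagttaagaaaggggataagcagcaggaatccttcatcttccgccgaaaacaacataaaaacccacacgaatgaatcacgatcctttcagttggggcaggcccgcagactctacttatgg
RPN5 chrIV:190674-190973: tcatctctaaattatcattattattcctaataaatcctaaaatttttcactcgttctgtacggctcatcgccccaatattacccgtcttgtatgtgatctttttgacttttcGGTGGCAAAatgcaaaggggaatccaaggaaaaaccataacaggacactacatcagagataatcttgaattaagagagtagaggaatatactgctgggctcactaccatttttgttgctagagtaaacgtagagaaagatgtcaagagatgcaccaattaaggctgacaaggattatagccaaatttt
SPS19 chrXIV:259328-259627: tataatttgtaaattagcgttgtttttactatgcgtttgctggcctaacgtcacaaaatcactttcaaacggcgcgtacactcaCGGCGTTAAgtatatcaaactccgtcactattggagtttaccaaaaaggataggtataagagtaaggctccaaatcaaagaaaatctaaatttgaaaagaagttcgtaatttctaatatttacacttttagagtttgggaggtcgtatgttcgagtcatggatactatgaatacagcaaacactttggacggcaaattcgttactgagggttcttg

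The proteasome element was found in 27 of 33 proteasome gene promoters (81.8%) and in 1.19% of all 5987 promoters of the same length. At least 2 matches to the stress element stood in 8 of 38 general stress promoters (21.1%, against 2.94% of all), and the zinc element in 3 of 18 zinc regulon promoters (16.7%, against 0.084%). The short oleate arm was found in 16 of 17 promoters of the peroxisomal fatty acid oxidation genes (94.1%) and 23.1% of all. The window includes the 50 bases after the gene start, and the only match of POX1 lay there. The promoters of ZPS1 and YGP1 held no match to the element of their group in this window, which says only that these letters are not there.

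Depth recovered from the table ran from 17.2 to 19.9 M reads (mega-reads) in sac3∆ and from 18.0 to 22.4 M in cdk8∆. Replicates within the 2 groups correlated at 0.992 to 0.996 (Pearson r across features on the log2 scale), and their counts differed by more than sampling noise (chi-square of 5.63 to 22.9 per degree of freedom). The first principal component of all 12 samples, with 58% of the variance, placed the cdk8∆ samples at 34.4 to 34.6 and the sac3∆ samples at -15.4 to -13.4. Markers of an a cell summed to 3358 to 4485 RPKM in sac3∆ and 1376 to 1518 in cdk8∆ over 7 markers, whereas 4 alpha-cell markers summed to 61.8 to 63.9 and 48.7 to 50.3 RPKM. In the test described below, 1 of the 4 alpha-cell markers was higher in sac3∆, 1 was lower and 2 did not pass. The higher one, SAG1, averaged 47.0 RPKM in sac3∆ and 24.4 in cdk8∆, and the lower one, STE3, 7.84 and 16.3. The 6 markers of meiosis or sporulation summed to 39.2 to 41.5 RPKM in sac3∆ and 50.9 to 52.5 in cdk8∆, none of these 17 genes was listed at 0 throughout a group, and their part in the differences described here was not tested. In bulk RNA, a change in the share of cells at a given stage cannot be told apart from a change of RNA per cell.

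The deleted genes were checked first. SAC3 (a 1-exon gene in the R64 build: YDR159W, chromosome IV, 771877 to 775782, plus strand) stood at 0.015, 0.0931 and 0.0294 RPKM in the sac3∆ samples and at 33.6, 33.8 and 33.1 in cdk8∆. SSN3 (also 1 exon: YPL042C, chromosome XVI, 473040 to 474707, minus strand) stood at 51.5, 46.4 and 45.5 RPKM in sac3∆ and at 0.121, 0.284 and 0.211 in cdk8∆. Each deleted gene was near 0 in all 3 samples of its own deletion and above 30 RPKM in all 3 samples of the other. Native SAC3 in cdk8∆ was below the plasmid-borne gene, whose mean was 51.3 RPKM in wild type and 63.7 in R288D.

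The deletions left widely different transcriptomes. Of the 6124 features, 3924 (64.1%) passed the limma test at an adjusted p of 0.05, 2015 (32.9%) higher and 1909 (31.2%) lower in sac3∆ than in cdk8∆. Differences of at least 2-fold that passed numbered 556 (9.08%), 277 higher (4.52%) and 279 lower (4.56%). The 3 values of one group lay wholly beyond those of the other for 4435 features (72.4%). The median difference over all features was 0.0034, with quartiles of -0.29 and 0.31 and a median standard error of 0.07. This near balance rests on the deposited scaling: with equal totals of RPKM times exon length, which shifts the median by -0.2151, 1173 features were higher and 3127 lower, so that 27.3% of calls were higher in place of 51.4%. With so many features passing, the counts of each gene group are to be read against these shares, and the sizes of the differences carry more than the calls.

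**Figure D1:**
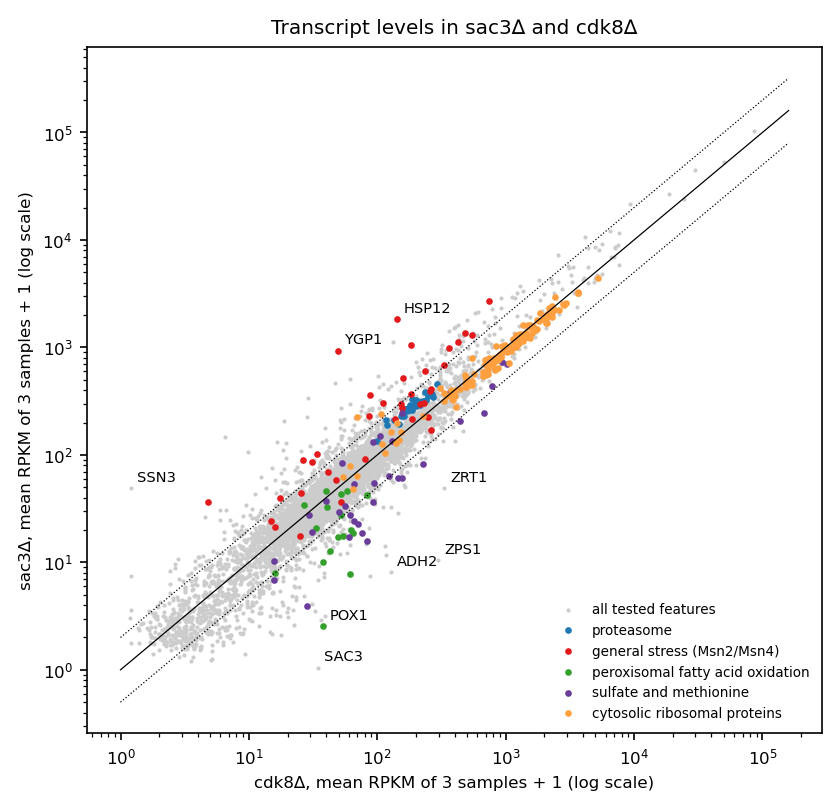
Mean RPKM plus 1 of each tested feature in the 3 cdk8∆ samples (horizontal, log scale) and the 3 sac3∆ samples (vertical, log scale), grey for all features and coloured for 5 gene groups, with solid and dotted lines at equal levels and at 2-fold apart. SAC3 and SSN3 lie at opposite corners, YGP1 and HSP12 far above the diagonal and ZPS1 and ADH2 far below it.

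Transcripts of the partners of both proteins differed by at most 0.61. CDC31, the yeast centrin, was higher in sac3∆, with 29.6, 32.5 and 38.7 RPKM against 21.2, 22.3 and 20.99 in cdk8∆, a difference of 0.61 ± 0.11 on the log2 scale of RPKM plus 1 (± standard error, limma adjusted p = 3.91e-04), a scale that understates the change of scarce genes. SEM1, which is also a proteasome subunit, differed by 0.29 ± 0.07 (limma adjusted p = 0.00402), and THP1, the PCI-domain partner of Sac3, by 0.16 ± 0.06 (limma adjusted p = 0.0428). SUS1, shared with SAGA, differed by -0.17 ± 0.08 and did not pass (limma adjusted p = 0.071). The call of SEM1 ended under quantile normalization (0.17) and with equal totals of RPKM times exon length (0.07). That of THP1 ended without sac3∆ replicate 1 or 2 or cdk8∆ replicate 1 or 2 (0.13 to 0.16), and with equal totals THP1 stood at -0.05. It also ended with medians set equal (0.13), in a fit of only the 2 groups compared and with a replicate block. SUS1 passed without sac3∆ replicate 2 (-0.22), under the scalings tried (-0.39 to -0.20) and with a replicate block. In the kinase module, the cyclin gene SSN8 (-0.36 ± 0.07, limma adjusted p = 8.44e-04) and SRB8 (-0.17 ± 0.05, limma adjusted p = 0.0146) were lower in sac3∆, and SSN2 at -0.09 ± 0.06 did not pass (limma adjusted p = 0.191). The call of SRB8 ended without cdk8∆ replicate 2 (-0.15), and SSN2 passed with equal totals (-0.30).

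Genes on either side of the deleted loci were examined next. Around SAC3, 5 of 6 neighbours were higher in sac3∆ (32.9% over all features): RPA14 (0.73), YDR157W (0.51), HOM2 (0.62), SSY1 (0.36) and NBP2 (0.31), while ACL4 at 0.21 did not pass. Wild type also lacks SAC3 at this locus. Against it SSY1 (0.47) and NBP2 (0.31) were higher in sac3∆, and RPA14 (0.07), YDR157W (-0.17) and HOM2 (0.24) did not pass. In cdk8∆, RPA14 (-0.66) and YDR157W (-0.68) were below wild type. A part of the deleted locus in these differences was not tested. HOM2, which encodes an enzyme of methionine and threonine synthesis, was uneven between replicates, with 187, 206 and 342 RPKM in sac3∆ against 159.8, 152 and 149 in cdk8∆, and without sac3∆ replicate 3 the difference was 0.35. The calls of HOM2 (0.40), SSY1 (0.14) and NBP2 (0.09) ended with equal totals, and ACL4 passed without sac3∆ replicate 2 (0.26). Around SSN3, the ribosome biogenesis gene NOP4 was higher in sac3∆ (0.76 ± 0.14, limma adjusted p = 3.94e-04), and ELC1, VPS16, MRX11, ISM1 and YPL039W, at -0.19 to 0.10, did not pass. Among markers, LEU2 of the plasmid stood at 1325, 1428 and 1437 RPKM in sac3∆ and 1784, 1636 and 1735 in cdk8∆ (-0.30 ± 0.09, limma adjusted p = 0.0112), and URA3 and MET17 were listed at 0 in all 12 samples. ADE2, of purine synthesis, was lower in sac3∆ (-1.16 ± 0.11, limma adjusted p = 2.89e-06), TRP1 differed by -0.21 ± 0.05 and CAN1 by 0.32 ± 0.06, and HIS3 (-0.01) and LYS2 (-0.10) did not pass. The call of CAN1 ended with equal totals (0.10), under which HIS3 (-0.22) and LYS2 (-0.32) passed.

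The 15 largest differences toward sac3∆ are described first, each gene by its own values. Only called genes whose sac3∆ and cdk8∆ samples did not overlap could enter either list of 15, so that separation is not a result. YGP1 (YNL160W, chromosome XIV, 336545 to 337609, plus strand), a secreted glycoprotein made when nutrients run short, stood at 913, 937 and 947 RPKM in sac3∆ and 46.1, 50.9 and 48.96 in cdk8∆, a difference of 4.23 ± 0.06 (limma adjusted p = 2.36e-13). HSP12 (YFL014W, chromosome VI, 107256 to 107585, plus strand), a small membrane-stabilising stress protein whose promoter is printed above, stood at 1971, 1838 and 1659 against 143, 160.1 and 122 RPKM (3.68 ± 0.11, limma adjusted p = 1.88e-10). Every sac3∆ sample was more than 10 times every cdk8∆ sample for YGP1 and HSP12, and the wild type means, 819 and 1819 RPKM, lay on the sac3∆ side. RCK1 (YGL158W, chromosome VII, 207033 to 208571, plus strand), a protein kinase of the oxidative stress response, had the largest difference, 4.45 ± 0.33 (limma adjusted p = 2.86e-07), from 184, 122 and 129 RPKM in sac3∆ against 5.19, 5.999 and 5.51 in cdk8∆, with a wild type mean of 37.3. Its sac3∆ samples spread widely, and its wild type level lay between the deletions.

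HSP26, a small heat shock chaperone also among the 15, stood at 410.2, 532 and 455 RPKM in sac3∆ and 42.6, 50.1 and 44.7 in cdk8∆ (3.31 ± 0.15, limma adjusted p = 5.09e-09), with a wild type mean of 199. HSP30 and its relative YRO2, plasma membrane proteins of stressed cells, were higher by 3.08 ± 0.08 and 3.06 ± 0.07 (limma adjusted p = 1.15e-10 and 2.70e-11). The polyamine exporter gene TPO2 stood at 94.3, 102 and 117 RPKM in sac3∆ and 8.22, 9.06 and 9.05 in cdk8∆ (3.42 ± 0.11, limma adjusted p = 2.35e-10), with a wild type mean of 101. The wild type mean lay between the deletions for HSP26 and near sac3∆ for TPO2. The others were FMP48 (3.54), the cyclin-dependent kinase inhibitor CIP1 (3.46), STP4 (2.998), the phosphatase gene PHM8 (2.99), the minor transketolase TKL2 (2.91), PNS1 (2.73), LSO1 (2.56) and the cell wall protein SPI1 (2.52), with limma adjusted p-values of at most 2.04e-05 over the 15.

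The 15 largest differences toward cdk8∆ follow in the same way. ZPS1 (YOL154W, chromosome XV, 34658 to 35407, plus strand), a cell surface protein induced by zinc limitation, stood at 8.89, 9.97 and 9.59 RPKM in sac3∆ and 317, 300.2 and 275 in cdk8∆, a difference of -4.83 ± 0.14 (limma adjusted p = 1.86e-10). ADH2 (YMR303C, chromosome XIII, 873291 to 874337, minus strand), the glucose-repressed alcohol dehydrogenase that consumes ethanol, stood at 9.27, 5.21 and 6.92 against 136, 123 and 123 RPKM (-4.01 ± 0.41, limma adjusted p = 4.26e-06). Wild type lay differently in each: its mean was 464 RPKM for ZPS1, above both deletions, and 8.27 for ADH2, near sac3∆. POX1 (YGL205W, chromosome VII, 108158 to 110404, plus strand), the acyl-CoA oxidase that starts peroxisomal fatty acid oxidation, stood at 1.64, 1.595 and 1.43 against 37.6, 38.2 and 35.2 RPKM (-3.89 ± 0.12, limma adjusted p = 1.86e-10). That all cdk8∆ samples were above all sac3∆ samples for these genes follows from how they were chosen.

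IMD2 (YHR216W, chromosome VIII, 554396 to 555967, plus strand), an IMP dehydrogenase of guanine nucleotide synthesis, stood at 9.85, 10.9 and 11.6 RPKM in sac3∆ and 118, 113 and 118 in cdk8∆ (-3.32 ± 0.08, limma adjusted p = 2.79e-11), with a wild type mean of 26.3. CIT3, a mitochondrial citrate and methylcitrate synthase, stood at 14.96, 13.1 and 11.5 against 119.6, 113 and 109.9 RPKM (-3.02 ± 0.20, limma adjusted p = 1.12e-07). FRM2, a nitroreductase, differed by -3.65 ± 0.17 (limma adjusted p = 7.18e-09) from a mean of 1.94 RPKM in sac3∆ and 35.6 in cdk8∆. CIT3 and FRM2 were low in sac3∆ and in wild type and several-fold to many-fold higher in cdk8∆. For IMD2 wild type lay between the deletions, and sac3∆ differed from wild type by -1.21. COS12 (-3.62), DPA10 (-3.60), the peroxisomal dienoyl-CoA reductase SPS19 (-2.98), the cell wall protein PIR5 (-2.95), the sulfate permease SUL1 (-2.84), the meiotic gene CSM4 (-2.82), the zinc transporter ZRT1 (-2.77) and the sporulation genes SPO20 (-2.69) and SPS1 (-2.62) made up the rest, with limma adjusted p-values of at most 4.26e-06 over the 15.

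**Figure D2:**
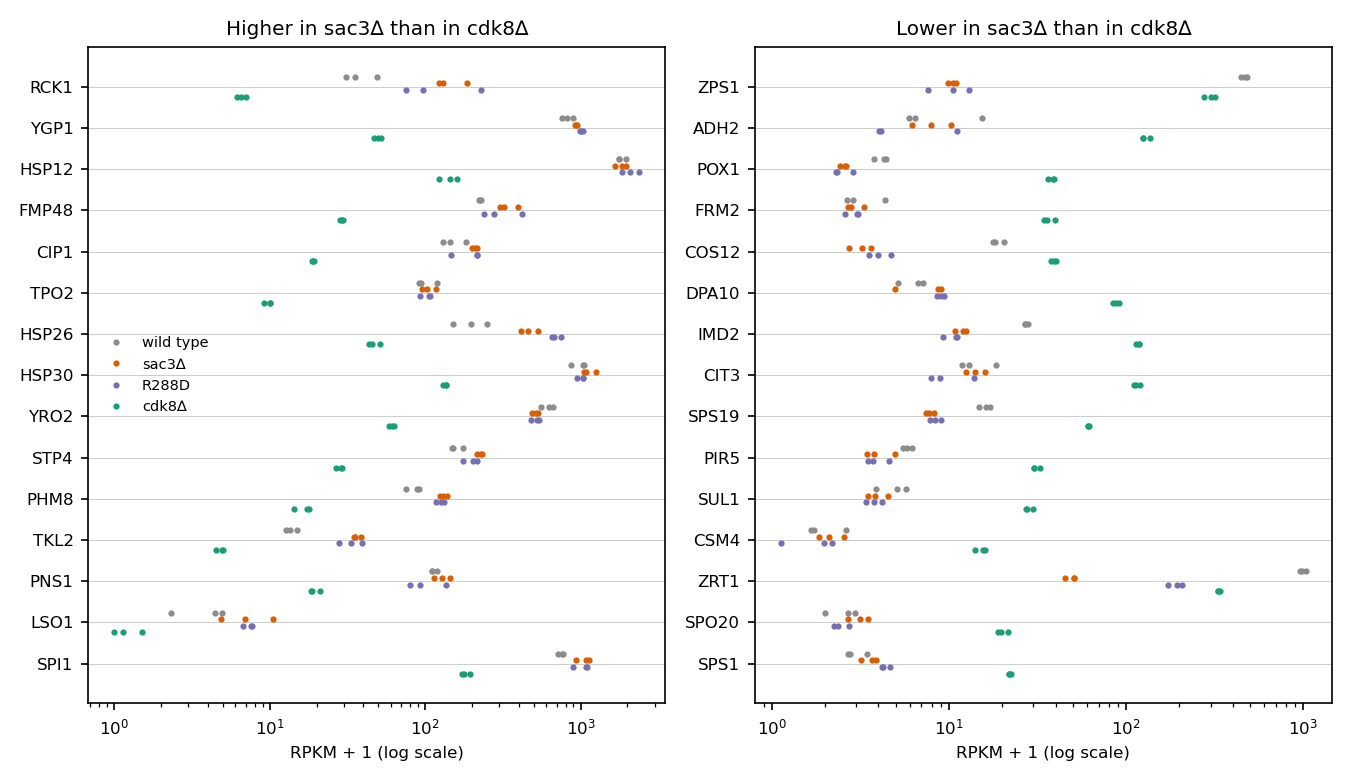
RPKM plus 1 of every sample (points, log scale, coloured by group) for the 15 largest differences in each direction. The genes were chosen among those whose sac3∆ and cdk8∆ samples do not overlap, and wild type lies above both deletions for YRO2, ZPS1 and ZRT1.

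Genes of the general stress response, which Msn2 and Msn4 activate, were mostly higher in sac3∆. Of 38 tested, 32 were higher, 3 lower (32.9% and 31.2% over all features) and 3 did not pass, with a median difference of 1.04 against 0.0034 over all features. CTT1, cytosolic catalase, stood at 391, 357 and 330.2 RPKM in sac3∆ and 86.7, 91.4 and 81.7 in cdk8∆ (2.04 ± 0.12, limma adjusted p = 3.46e-08), and GPD1, which makes glycerol, at 622, 612 and 574 against 230.1, 238 and 231 (1.37 ± 0.06, limma adjusted p = 6.21e-09). HOR7, a plasma membrane protein gene of osmotic stress, was higher by 1.88 ± 0.08 (limma adjusted p = 1.74e-09). The groups did not overlap in these genes, as in 72.4% of all features. Genes named from the lists, here and below, were mostly picked for low adjusted p, so their separation is not a result. Set against the same 3 wild type samples, the list's median was 0.09 in sac3∆ and -0.98 in cdk8∆.

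Heat shock and carbohydrate reserve genes were mostly on the same side. Of 30 heat shock and chaperone genes, 21 were higher in sac3∆, 4 lower and 5 did not pass (median 0.56). HSP104, the disaggregase, stood at 1373, 1416 and 1307 RPKM in sac3∆ against 551, 552 and 561 in cdk8∆ (1.30 ± 0.07, limma adjusted p = 1.18e-08), and HSP42 differed by 1.34 ± 0.07 and the Hsp70 gene SSA4 by 1.28 ± 0.06. Trehalose and glycogen genes counted 12 higher, 2 lower and 5 not passing of 19 (median 0.73). TPS2, trehalose phosphatase, stood at 765, 731 and 687 against 195, 201 and 200.3 RPKM (1.87 ± 0.09, limma adjusted p = 6.21e-09), the glycogen phosphorylase GPH1 differed by 1.80 ± 0.11 and glycogen synthase GSY2 by 1.48 ± 0.09, while the phosphoglucomutase PGM1 was lower (-0.71 ± 0.05). Oxidative stress genes did not follow, with 5 higher and 11 lower of 23 (median -0.21): the peroxiredoxin AHP1 (1.40 ± 0.07) and the factor YAP1 (1.04 ± 0.05) were higher, and the peroxisomal catalase CTA1 (-2.27 ± 0.17) and sulfiredoxin SRX1 (-1.25 ± 0.14) were lower.

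All 33 genes of the proteasome list were higher in sac3∆ than in cdk8∆. Their median difference was 0.59, and all 33 also passed with equal totals of RPKM times exon length. SEM1, a subunit named above with TREX-2, was not on this list. It was higher by 0.29, and its call ended with equal totals and under quantile normalization. PRE4 (YFR050C, chromosome VI, 249066 to 249866, minus strand), a beta subunit of the core, stood at 324, 340.3 and 333 RPKM in sac3∆ and 188, 183 and 185 in cdk8∆ (0.84 ± 0.04, limma adjusted p = 3.76e-09). RPN5 (YDL147W, chromosome IV, 190924 to 192261, plus strand), a lid subunit, stood at 391, 382 and 367 against 234, 238 and 231 RPKM (0.69 ± 0.04, limma adjusted p = 3.28e-08). No sample of one group reached the other for PRE4 or RPN5, whose promoters are printed above, as was so for 72.4% of all features. RPN4, the factor that binds the proteasome element, stood at 225, 196 and 203 RPKM in sac3∆ and 115, 116 and 117 in cdk8∆ (0.83 ± 0.08, limma adjusted p = 3.80e-06). Against wild type the list's median was -0.20 in sac3∆ and -0.74 in cdk8∆.

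**Figure D3:**
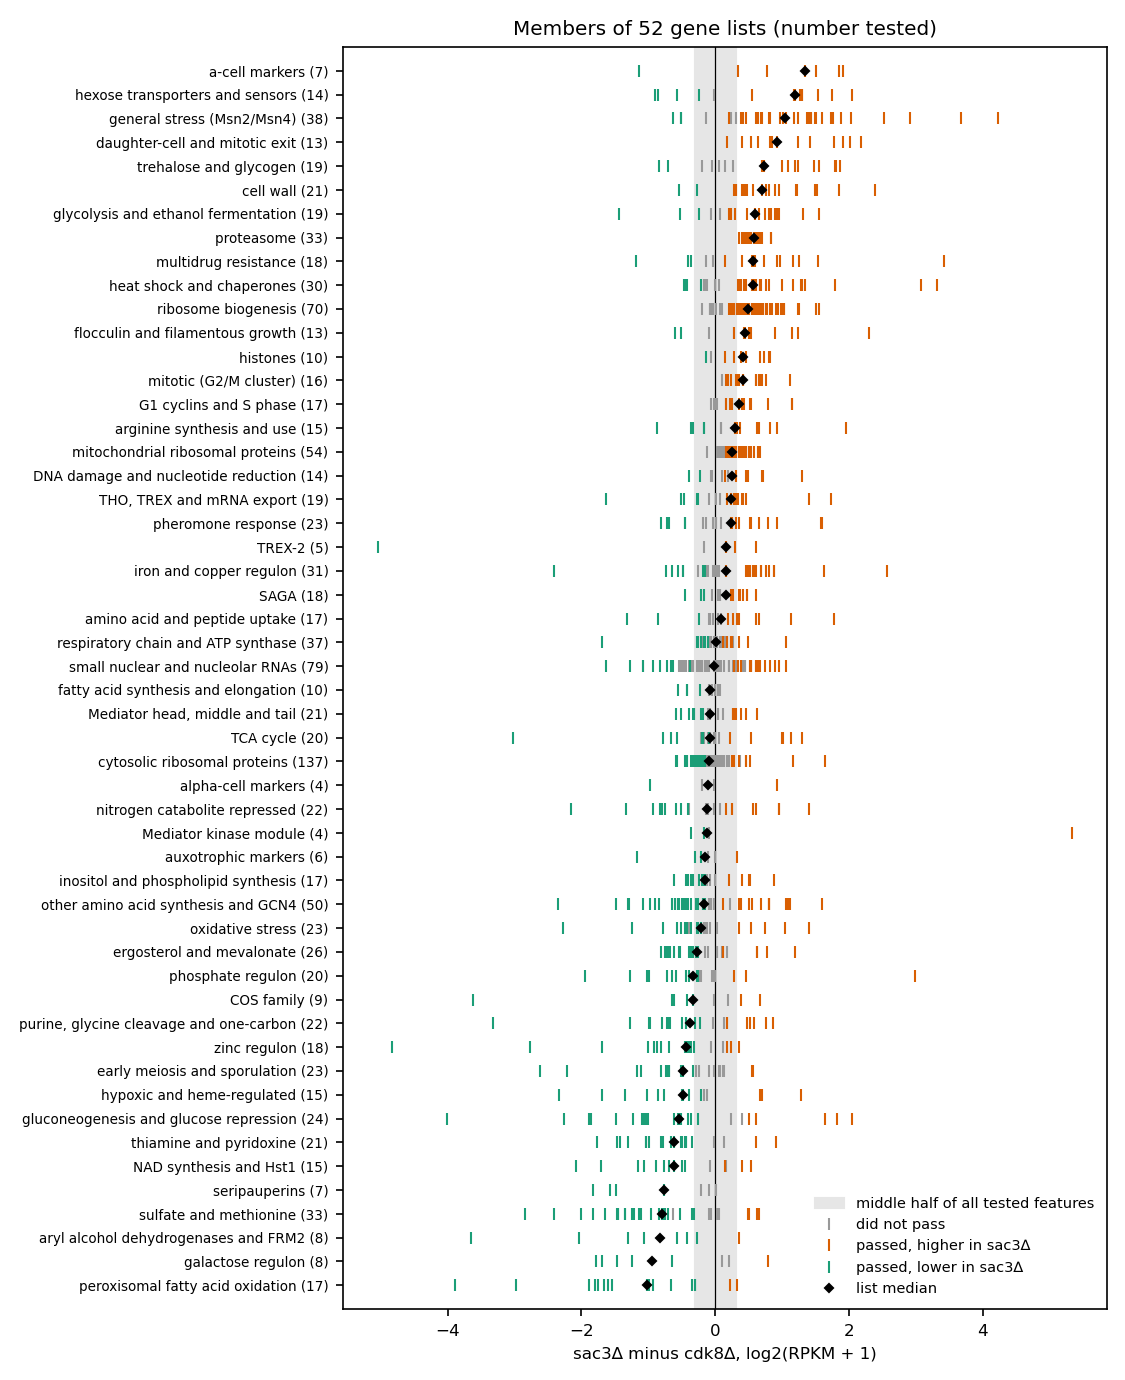
Difference between sac3∆ and cdk8∆ (log2 of RPKM plus 1, horizontal) for each member of the gene groups described (ticks) with the group's median, against the quartiles of all tested features (band). Daughter-cell, proteasome and stress genes lie to the right, and peroxisomal, sulfate and galactose genes to the left.

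Glycolysis and hexose transporter genes were more often higher than lower in sac3∆. Of 19 glycolysis and ethanol fermentation genes, 14 were higher in sac3∆ and 3 lower (median 0.59). TDH1, a glyceraldehyde-3-phosphate dehydrogenase, stood at 2272, 2374 and 2205 RPKM in sac3∆ and 791, 786 and 761 in cdk8∆ (1.55 ± 0.06, limma adjusted p = 1.02e-09), and ENO1, enolase, at 2320.3, 2423 and 2175 against 955, 909.9 and 906 (1.32 ± 0.06, limma adjusted p = 4.32e-09). The pyruvate kinase CDC19 (0.93 ± 0.08) and PGK1 (0.95 ± 0.07) were also higher, while PDC6, a minor pyruvate decarboxylase, was lower (-1.44 ± 0.12). Hexose transporters and sensors counted 9 higher and 4 lower of 14 (median 1.19), and HXT4 stood at 456, 365 and 472 against 104, 104 and 101 RPKM (2.05 ± 0.15, limma adjusted p = 3.16e-07). The Rgt1 partners MTH1 (1.53 ± 0.12) and STD1 (1.18 ± 0.06) and the abundant transporter HXT3 (1.30 ± 0.05) were higher, and HXT6 and HXT7 share nearly identical sequence, so their separate values are uncertain.

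Genes repressed by glucose were mostly lower in sac3∆. Of 24, 17 were lower and 5 higher (median -0.54), and without sac3∆ replicate 3 the lower count was 11. MLS1, malate synthase of the glyoxylate cycle, stood at 1.79, 1.404 and 1.42 RPKM in sac3∆ and 11.3, 11.4 and 10.6 in cdk8∆ (-2.25 ± 0.16, limma adjusted p = 1.49e-07), and the acetate transporter ADY2 differed by -1.85 ± 0.32 and acetyl-CoA synthetase ACS1 by -1.06 ± 0.23. Against this direction, the sugar kinases HXK1 (1.82 ± 0.13) and GLK1 (1.64 ± 0.09) and the malate dehydrogenase MDH2 (2.05 ± 0.06) were higher in sac3∆. The galactose regulon counted 5 lower and 1 higher of 8 (median -0.94), with the inducer GAL3 at 4.23, 4.12 and 4.86 against 16.6, 16.6 and 16.2 RPKM (-1.70 ± 0.10, limma adjusted p = 5.18e-08). GAL1 at 5.805 and 4.797 RPKM and GAL80 at 93.7 and 87.5 did not pass.

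Fatty acid oxidation genes of the peroxisome were mostly lower in sac3∆. Of 17, 15 were lower in sac3∆ and 2 higher, with a median of -1.02. SPS19 (YNL202W, chromosome XIV, 259578 to 260456, plus strand) stood at 7.25, 6.68 and 6.41 RPKM in sac3∆ and 60.3, 60.6 and 59.99 in cdk8∆ (-2.98 ± 0.08, limma adjusted p = 6.25e-11). FOX2, the multifunctional beta-oxidation enzyme, stood at 12.8, 10.8 and 11.5 against 41.8, 42.5 and 40.6 RPKM (-1.75 ± 0.12, limma adjusted p = 1.37e-07), and the thiolase POT1 differed by -1.89 ± 0.23 and PEX11, a peroxisome division factor, by -0.99 ± 0.06. In each the 3 cdk8∆ samples were above the 3 sac3∆ samples, and the groups were apart in 72.4% of all features. Fatty acid synthesis counted 0 higher and 4 lower of 10, among them FAS1 (-0.22 ± 0.07) and FAS2 (-0.42 ± 0.06), while OLE1 (-0.05) and ACC1 (0.04) did not pass.

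Respiratory genes were called in both directions. In the TCA cycle 6 genes were higher in sac3∆ and 7 lower of 20, shares near those over all features, and without sac3∆ replicate 3 the lower count was 4. Values for this cycle include aconitase ACO1 at 637, 653 and 676 against 270.3, 258 and 269.8 RPKM (1.30 ± 0.05, limma adjusted p = 6.98e-10) and fumarase FUM1 lower (-0.78 ± 0.05). Of 37 respiratory chain and ATP synthase genes, 7 were higher, 9 lower and 21 did not pass, and the sign of their median (0.01) turned under median, quantile and equal-total scaling and without sac3∆ replicate 1 or cdk8∆ replicate 1 or 3. Their lower count was 5 without sac3∆ replicate 3 or cdk8∆ replicate 1 or 2, and their higher count 4 without cdk8∆ replicate 3. CYC1, cytochrome c, stood at 51.02, 54.9 and 43.2 against 171, 157 and 161 RPKM (-1.70 ± 0.10, limma adjusted p = 4.15e-08), and NDE1, an NADH dehydrogenase, was higher by 1.06 ± 0.08. Hypoxic and heme-regulated genes counted 3 higher and 10 lower of 15 (median -0.48), with ANB1, the hypoxic translation factor gene, at 27.1, 32.6 and 24.6 against 148, 134 and 153 RPKM (-2.33 ± 0.09, limma adjusted p = 1.62e-09) and its repressor gene ROX1 higher by 1.28 ± 0.07.

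Ribosome biogenesis and mitochondrial ribosomal protein genes were mostly higher in sac3∆. Of 70 ribosome biogenesis genes, 59 were higher in sac3∆ and 0 lower (median 0.49). UTP6, of the small subunit processome, stood at 51.04, 57.1 and 56.2 RPKM in sac3∆ and 22.6, 21.01 and 23.3 in cdk8∆ (1.26 ± 0.09, limma adjusted p = 2.71e-07), and BFR2 differed by 1.56 ± 0.15. Mitochondrial ribosomal protein genes counted 36 higher, 0 lower and 18 not passing of 54 (median 0.26). With equal totals these became 42 higher and 10 lower for biogenesis and 14 and 4 for the mitochondrial ribosome.

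Cytosolic ribosomal protein genes mostly did not pass. Of 137, 90 did not pass, 39 were lower in sac3∆ and 8 higher (median -0.09), though 104 were lower with equal totals and 101 with quantile normalization. Without 1 library the lower count was 23 (sac3∆ replicate 1), 24 (sac3∆ replicate 3), 20 (cdk8∆ replicate 1) or 23 (cdk8∆ replicate 3). Against the same wild type samples the median was -0.73 in sac3∆ and -0.64 in cdk8∆. Exceptions included RPS28B, at 142, 263 and 267 RPKM in sac3∆ and 61.3, 80.1 and 65.3 in cdk8∆ (1.64 ± 0.25, limma adjusted p = 1.14e-04), and RPS9A, at 244, 247 and 229.9 against 109, 102 and 109.6 (1.16 ± 0.07, limma adjusted p = 3.45e-08). RPL9A was lower (-0.58 ± 0.06) and its near-identical copy RPL9B higher by 0.45 ± 0.07, and such pairs are uncertain where reads fit both copies. Small nuclear and nucleolar RNAs counted 16 higher, 9 lower and 54 not passing of 79, with SNR19, the U1 RNA, at 8627, 7897 and 8863 against 4393, 3834 and 4926 RPKM (0.95 ± 0.09, limma adjusted p = 3.07e-06). Which direction held more of these RNAs turned on single libraries: higher and lower counts were 23 and 7 without sac3∆ replicate 1, 9 and 7 without replicate 2 and 8 and 16 without replicate 3. Without cdk8∆ replicates 1, 2 and 3 in turn they were 10 and 6, 9 and 13, and 15 and 5.

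**Figure D4:**
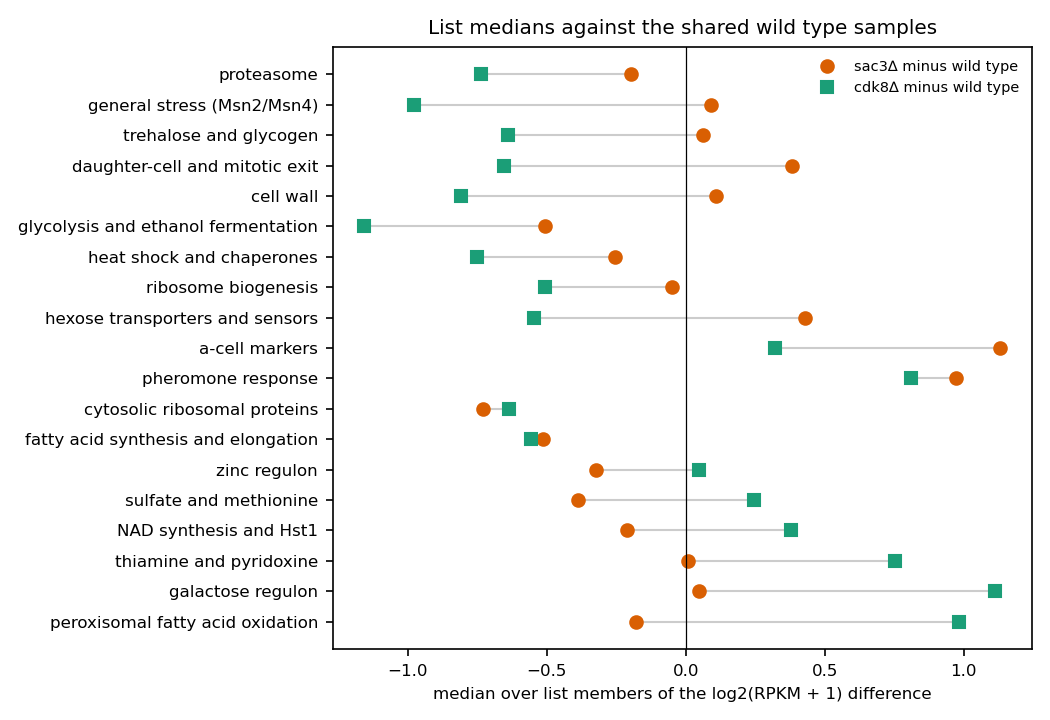
Median over the members of 19 gene groups of the difference from wild type (log2 of RPKM plus 1, horizontal) in sac3∆ (circles) and cdk8∆ (squares). Both use the same 3 wild type samples, and the circle lies right of the square for proteasome and general stress genes and left of it for sulfate and peroxisomal genes.

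Daughter-cell genes expressed as cells leave mitosis were higher in sac3∆, all 13 of 13, with a median of 0.93. EGT2, which acts in cell separation, stood at 183, 177 and 171 RPKM in sac3∆ and 38.9, 38.3 and 38.03 in cdk8∆ (2.18 ± 0.05, limma adjusted p = 4.54e-11). AMN1, an inhibitor of mitotic exit, stood at 300.1, 275 and 274 against 74.6, 75.8 and 73.7 RPKM (1.91 ± 0.05, limma adjusted p = 7.43e-11), and the glucanase gene SCW11 differed by 2.01 ± 0.08 and the mating-type switching repressor ASH1 by 1.24 ± 0.08. For EGT2 and AMN1 every sac3∆ sample was above every cdk8∆ sample, and the groups were apart in 72.4% of all features. SWI5, a transcription factor of mitotic exit, was higher by 0.61 ± 0.05. With equal totals, 11 of the 13 were higher and 0 were lower.

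Other cell cycle genes leaned the same way by smaller amounts. The mitotic cluster counted 15 higher and 0 lower of 16 (median 0.42), with the cyclin CLB1 at 74.8, 75.3 and 77.1 against 33.6, 34.9 and 34.1 RPKM (1.12 ± 0.05, limma adjusted p = 6.08e-09). G1 cyclin and S phase genes counted 12 and 0 of 17 (median 0.35), with CLN2 higher by 1.14 ± 0.06 and CLN3 by 1.14 ± 0.06. Histone genes counted 8 and 1 of 10, HTB1 being higher by 0.82 ± 0.06. With equal totals the higher and lower counts became 10 and 0, 7 and 3, and 6 and 2 in that order. Of the DNA damage genes 8 were higher and 2 lower of 14, and RNR1, the large ribonucleotide reductase subunit, stood at 90.05, 96.8 and 105 against 41.9, 35.7 and 38.7 RPKM (1.30 ± 0.10, limma adjusted p = 2.56e-07).

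Cell wall genes were mostly higher in sac3∆, 19 of 21 with 2 lower and a median of 0.70. PST1, a wall protein of the cell integrity response, stood at 285, 274 and 257 RPKM in sac3∆ and 51.0000, 52.8 and 49.9 in cdk8∆ (2.38 ± 0.05, limma adjusted p = 2.83e-11). SED1, a major structural mannoprotein, stood at 2065, 2093 and 2046 against 594, 564 and 568 RPKM (1.84 ± 0.07, limma adjusted p = 1.74e-09), and the glucan synthase gene GSC2 was lower (-0.54 ± 0.06). Flocculin and filamentous growth genes counted 9 higher and 2 lower of 13 (median 0.44). MGA1, a filamentous growth regulator, stood at 75.2, 78.8 and 67.5 against 13.7, 15.02 and 13.7 RPKM (2.30 ± 0.08, limma adjusted p = 3.65e-10), and the regulators TEC1 (1.16 ± 0.14) and PHD1 (1.23 ± 0.12) were higher, while the flocculins FLO1 (0.69 and 1.42 RPKM) and FLO9 (0.776 and 1.6998) were scarce in both groups.

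Mating genes were called in both directions. Of the 7 a-cell markers, 6 were higher in sac3∆ and 1 lower (median 1.34). MFA2, a gene of the a-factor pheromone, stood at 1098, 1785 and 1678 RPKM in sac3∆ and 377, 433 and 379 in cdk8∆ (1.91 ± 0.20, limma adjusted p = 5.63e-06), and STE2, the alpha-factor receptor, at 623, 640.0 and 598 against 240.0, 249 and 242 (1.34 ± 0.06, limma adjusted p = 2.27e-09). ASG7, also an a-cell gene, was lower (-1.14 ± 0.07). Pheromone response genes counted 11 higher and 5 lower of 23 (median 0.23), and 7 and 9 with equal totals. FIG1, induced in mating cells, stood at 17.1, 17.7 and 20.1 against 5.396, 4.96 and 5.97 RPKM (1.59 ± 0.10, limma adjusted p = 5.41e-08) and the agglutinin anchor AGA1 differed by 1.59 ± 0.11, whereas the fusion genes FUS1 (-0.45 ± 0.07) and FUS2 (-0.69 ± 0.08) were lower.

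Meiotic and sporulation genes were scarce in both deletions and mostly lower in sac3∆ than in cdk8∆, 13 of 23 tested with 2 higher (median -0.47, which turned sign with a filter at 10 RPKM). Against wild type the list's median was 0.34 in sac3∆ and 0.74 in cdk8∆. SPS1, a kinase needed for spore formation, stood at 2.897, 2.19 and 2.69 RPKM in sac3∆ and 21.4, 20.8 and 20.96 in cdk8∆ (-2.62 ± 0.12, limma adjusted p = 6.21e-09), and SPR3, a sporulation septin, at 3.53, 2.67 and 2.84 against 16.5, 18.6 and 17.5 (-2.21 ± 0.17, limma adjusted p = 3.78e-07). SPO11, which makes meiotic DNA breaks, was lower (-1.17 ± 0.14), and RED1 (0.55 ± 0.07) and ZIP1 (0.57 ± 0.08), of the chromosome axis and synaptonemal complex, were higher.

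Sulfur assimilation genes were mostly lower in sac3∆ than in cdk8∆. Of 33 sulfate and methionine genes tested, 23 were lower, 4 higher and 6 did not pass (median -0.79). SUL2, a sulfate permease, stood at 18.9, 17.8 and 16.6 RPKM in sac3∆ and 73.9, 75.8 and 73.6 in cdk8∆ (-2.01 ± 0.06, limma adjusted p = 1.53e-10), and MET10, sulfite reductase, at 84.7, 82.7 and 75.7 against 223, 224 and 226 (-1.46 ± 0.05, limma adjusted p = 3.50e-10). No sample of one group reached the other in SUL2 or MET10, as was so for 72.4% of all features. SAM2, which makes S-adenosylmethionine, differed by -1.46 ± 0.05, and its wild type mean of 813 RPKM was above both deletions (246 and 681). The list's median against wild type was -0.39 in sac3∆ and 0.24 in cdk8∆.

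Amino acid and nitrogen genes were mixed. Arginine genes counted 8 higher and 5 lower of 15 (3 lower without cdk8∆ replicate 1), with ARG3 at 40.4, 44.4 and 42.9 RPKM in sac3∆ against 10.99, 10.2 and 9.34 in cdk8∆ (1.96 ± 0.09, limma adjusted p = 3.57e-09). Of 50 genes of other amino acid synthesis, a list that includes GCN4, 25 were lower and 13 higher (median -0.17). Among them SER3 (-1.48 ± 0.04) and SER33 (-1.30 ± 0.05), isozymes of serine synthesis, were lower, and LEU4 (1.09 ± 0.04), ILV2 (1.06 ± 0.06) and ILV5 (1.60 ± 0.09), of branched-chain synthesis, were higher. GCN4, the activator of these genes, stood at 1069, 1034 and 1025 against 624, 575 and 587 RPKM (0.81 ± 0.06, limma adjusted p = 3.50e-07). Genes repressed by good nitrogen sources counted 7 higher and 9 lower of 22 (31.8% and 40.9%, beside 32.9% and 31.2% over all features). Among them the proline oxidase PUT1 was higher by 1.40 ± 0.10 and the proline transporter PUT4 lower (-2.16 ± 0.17). Uptake genes counted 8 and 3 of 17, and 4 and 7 with equal totals, which turned the sign of their median. The branched-chain permease BAP2 stood at 409, 402 and 427 against 118, 121 and 119.9 RPKM (1.78 ± 0.04, limma adjusted p = 2.79e-11), and the peptide transporter PTR2 was lower (-1.32 ± 0.05).

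Vitamin and cofactor genes were mostly lower in sac3∆. The list of NAD synthesis genes and HST1 counted 10 lower and 3 higher of 15 (median -0.62). BNA2, the first enzyme from tryptophan, stood at 14.4, 12.9 and 13.5 RPKM in sac3∆ and 60.2, 62.6 and 58.7 in cdk8∆ (-2.08 ± 0.08, limma adjusted p = 7.85e-10). HST1 and SUM1, the repressors of NAD synthesis genes, were higher by 0.54 ± 0.05 and 0.40 ± 0.04, and HST1 is itself among the higher members counted. Thiamine and pyridoxine genes counted 17 lower and 2 higher of 21 tested (median -0.62), with the thiamine transporter THI7 at 33.7, 32.6 and 34.8 against 96.4, 93.1 and 94.2 RPKM (-1.46 ± 0.07, limma adjusted p = 8.18e-09). The near-identical THI11 and THI13 are uncertain as separate genes. Purine and one-carbon genes counted 13 lower and 6 higher of 22 (median -0.37): ADE1 differed by -0.98 ± 0.04 and MTD1 by -1.27 ± 0.06, while GCV1, of glycine cleavage, was higher by 0.87 ± 0.06.

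Zinc genes were mostly lower in sac3∆, 13 of 18 with 3 higher and a median of -0.43. ZRT1 (YGL255W, chromosome VII, 20978 to 22108, plus strand), the high-affinity zinc transporter whose promoter is printed above, stood at 49.7, 43.96 and 50.1 RPKM in sac3∆ and 340.0, 328 and 329.8 in cdk8∆ (-2.77 ± 0.07, limma adjusted p = 6.25e-11). Both deletions were below wild type (989, 1033 and 957 RPKM), and the R288D mean was 189.9. ZAP1, the zinc-responsive activator, was lower (-0.9997 ± 0.06, limma adjusted p = 3.60e-08), and ZRT2, the low-affinity transporter, was higher by 0.35 ± 0.05 (limma adjusted p = 2.88e-05). Iron and copper genes counted 16 higher and 8 lower of 31, with the ferroxidase FET3 at 319, 330.0 and 316 against 106, 105 and 101 RPKM (1.62 ± 0.06, limma adjusted p = 7.35e-10) and the reductase FRE4 lower (-2.42 ± 0.11), and the sign of their median (0.16) turned with equal totals. Phosphate genes counted 12 lower and 3 higher of 20 (median -0.33), the acid phosphatase PHO5 being lower (-1.0016 ± 0.09).

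Lipid genes counted more lower than higher members and drug resistance genes the reverse. Ergosterol and mevalonate genes counted 14 lower and 6 higher of 26 (median -0.28), with ERG13 (-0.81 ± 0.05) lower and ERG25 (1.19 ± 0.07) higher. Inositol and phospholipid genes counted 9 and 5 of 17, INO1 standing at 39.3, 42.4 and 46.995 RPKM in sac3∆ and 25.1, 22.3 and 21.2 in cdk8∆ (0.88 ± 0.08, limma adjusted p = 1.91e-06). Multidrug resistance genes counted 13 higher and 3 lower of 18 (median 0.57), with the transporter PDR5 at 139, 144 and 167 against 51.7, 47.8 and 53.3 RPKM (1.53 ± 0.07, limma adjusted p = 6.42e-09). Aryl alcohol dehydrogenase genes with FRM2 and HBN1 counted 7 lower and 1 higher of 8 (median -0.82).

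Genes of mRNA export and of the coactivators went both ways. YRA1, the export adaptor that regulates its own intron-containing transcript, stood at 1078, 1097 and 1001 RPKM in sac3∆ and 325, 313 and 316 in cdk8∆ (1.73 ± 0.05, limma adjusted p = 1.15e-10), and NAB2, the poly(A)-binding export factor that also regulates its own transcript, at 223, 212 and 197 against 84.02, 74.5 and 77.9 (1.41 ± 0.08, limma adjusted p = 2.37e-08). THP3, which acts with Csn12 in transcription elongation, was lower at 16.6, 17.6 and 17.6 against 55.4, 54.4 and 56.6 RPKM (-1.63 ± 0.05, limma adjusted p = 3.95e-10). Wild type means, 557, 119.7 and 50.3 RPKM, lay between the deletions for YRA1 and NAB2 and near cdk8∆ for THP3. The THO, TREX and export list counted 11 higher and 5 lower of 19 (5 and 8 with equal totals), SAGA 9 and 3 of 18 (4 and 7, and 1 lower without cdk8∆ replicate 2), and the Mediator head, middle and tail 7 and 9 of 21 (3 and 12). The Mediator shares, 33.3% higher and 42.9% lower, stand beside 32.9% and 31.2% over all features. Among Mediator subunits the tail gene GAL11 was higher by 0.63 ± 0.06 and the head gene MED8 lower (-0.58 ± 0.07).

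Scaling to equal totals of RPKM times exon length moved some of these counts by over 1.5 times. Higher and lower counts became 19 and 8 for heat shock, 12 and 5 for trehalose and glycogen, 4 and 18 for oxidative stress, 11 and 5 for glycolysis, 5 and 14 for the TCA cycle, 2 and 21 for the respiratory chain and 8 and 23 for small nuclear and nucleolar RNAs. They became 15 and 15 for iron and copper, 1 and 14 for zinc, 0 and 8 for fatty acid synthesis, 3 and 12 for inositol and phospholipids, 0 and 15 for peroxisomal oxidation and 6 and 4 for DNA damage. Quantile normalization gave 3 and 6 for meiosis, 4 and 17 for the respiratory chain and 7 and 21 for the small RNAs. It also gave 10 and 5 for glycolysis (median 0.26), 20 and 7 for heat shock and 5 and 1 for histones (median 0.17). Counts under it were 0 and 7 for fatty acid synthesis, 8 and 5 for amino acid uptake and 11 and 0 for flocculin and filamentous growth. Members whose mean lay below 1 RPKM were not tested, which left 14 of 20 hexose transporter and sensor genes, 7 of 24 seripauperins and 9 of 12 COS genes, and all but 1 or 2 members of the other lists.

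Shares of calls by position along the chromosome are given as a description, with no test. Of 50 protein-coding genes within 10 kb of an end, 60.0% were lower and 16.0% higher, and of 94 between 10 and 20 kb 59.6% and 19.1%, against 30.8% and 35.0% of 5090 genes beyond 50 kb. Among genes of 10 to 100 RPKM, 64.4% of 73 within 20 kb were lower and 31.03% of 3509 beyond 50 kb. COS12 (YGL263W, chromosome VII, 2790 to 3932, plus strand), of a subtelomeric family that sorts membrane proteins to the vacuole, stood at 1.74, 2.64 and 2.21 RPKM in sac3∆ and 38.01, 39.02 and 36.8 in cdk8∆ (-3.62 ± 0.12, limma adjusted p = 5.55e-10). The COS family counted 5 lower and 2 higher of 9 tested, and the seripauperins 4 lower and 0 higher of 7, with PAU4 at 0.966, 1.86 and 0.475 against 6.11, 5.74 and 6.68 RPKM (-1.82 ± 0.23, limma adjusted p = 2.95e-05). Members of both families are near-identical, so their separate values are uncertain.

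Shares by level and by length are given in the same way. Of 728 features at 1 to 10 RPKM, 38.5% were lower in sac3∆ and 14.97% higher, and of 328 at 300 to 1000 RPKM 23.8% and 45.1%. Level is the mean over 12 samples, cdk8∆ among them, so features scarce elsewhere can enter the lowest class through their cdk8∆ values. CSM4, for example, averaged 1.00 RPKM in wild type, 1.17 in sac3∆, 0.767 in R288D and 14.3 in cdk8∆. How much of the lean toward lower follows from this, here and in other classes set by level, was not tested. Protein-coding genes with more than 3000 bases of exon were higher in 51.6% and lower in 17.5% of 486, and those of 500 to 1000 bases in 28.5% and 38.0% of 1419. These properties overlap with the gene groups above and their part in them was not tested.

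**Figure D5:**
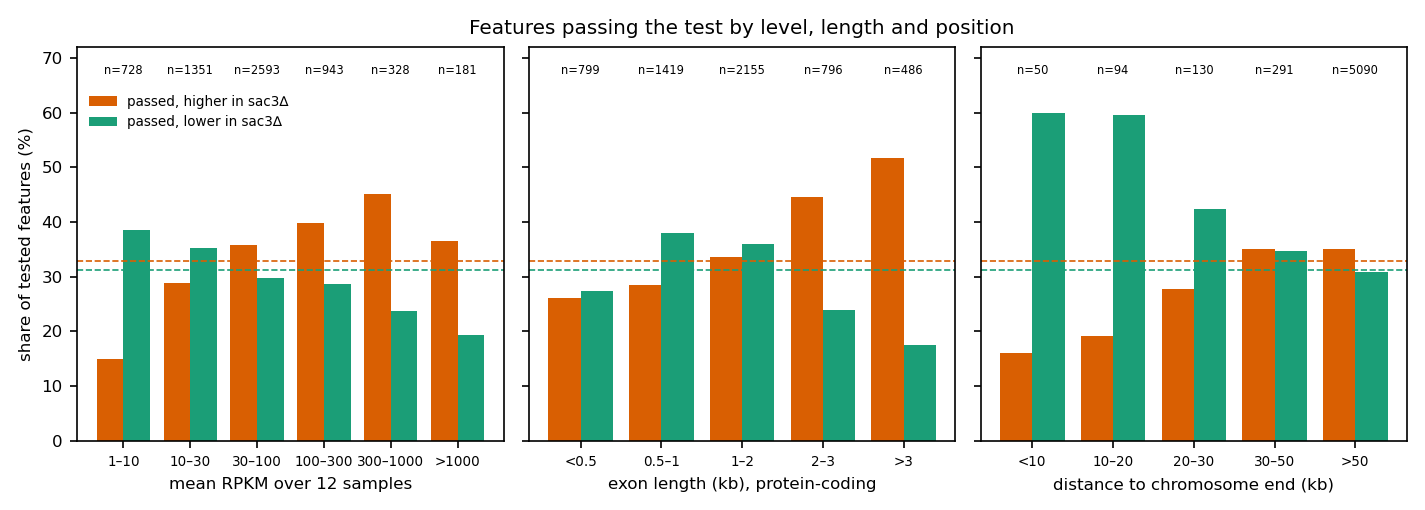
Share of tested features that passed and were higher (orange) or lower (green) in sac3∆ than in cdk8∆, by mean RPKM, by exon length and by distance to the chromosome end, with the number of features above the bars. Dashed lines give the shares over all 6124 features, 32.9% and 31.2%, and the green bar is tallest near chromosome ends.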

How the data were processed

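RNA was sequenced from 12 samples, 3 in each of 4 groups, and 6 of them form the comparison. The authors deposited one table of RPKM values per feature. Per the submitters' processing notes, which give no roles, the R64 build was used with HTSeq 0.5.4p3, TopHat2 2.0.9, limma, edgeR and R 3.0.1. The strand setting of the counting is not given in the sources used here, so reads of overlapping and antisense genes cannot be told apart. Values multiplied by exon length were whole multiples of a sample-specific step (99.3 to 99.7% of values under 300 reads within 0.1 read), which gave the depth, 16.2 to 22.4 M reads (mega-reads). The scaled library size was 0.969 to 0.999 times the recovered reads in sac3∆ and 1.14 to 1.18 times in cdk8∆.

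Of 7126 features, 6162 matched the R64 annotation, and 6124 whose average over 12 samples reached 1 RPKM entered the test, 369 of them with no reference entry. Log2 of RPKM plus 1 was modelled in limma 3.58.1 (R 4.3.3) on all 12 samples (1 mean per group, mean trend, 8 residual degrees of freedom, two-sided), with Benjamini-Hochberg adjustment over all tested features and a threshold of 0.05. The procedure was tested on simulated reads with a small share of genes changed and the same dispersion for every gene. These settings differ from the data, so that test does not measure errors among the calls here. Tables and plots were made with Python 3.11.15, pandas 2.3.3, numpy 2.4.6 and matplotlib 3.10.9.

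Genes named are members of TREX-2 and the kinase module, the 15 largest called differences with groups apart in each direction (genes without a standard symbol, non-coding RNAs and the deleted genes left out), up to 6 called members of each of 52 lists with the lowest adjusted p, 3 neighbours on either side of each deleted gene, and marker genes. Other list members named for their role were chosen after their values were seen. The members and lists were chosen with earlier results of these data known. Groups of 3 were not tested for outliers. The 17 alternatives were other pseudocounts, filters, scalings, fits, a replicate block, voom on recovered reads and leaving out each replicate.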

Additional observations from a re-analysis of the deposited data

How the results depend on the processing

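Over 17 alternatives the number of features passing ran from 3513 to 4300, against 3924. A pseudocount of 5 left 369 features at least 2-fold apart, against 556. Equal totals of RPKM times exon length gave 1173 features higher and 3127 lower in sac3∆ and turned THP1 to -0.0509 and VPS16 to -0.21. Leaving out 1 replicate gave 3513 to 3708 calls, 1801 to 1916 higher and 1712 to 1806 lower, and 552 to 569 at least 2-fold apart. With a replicate block 3879 features passed, 1993 higher and 1886 lower, 556 of them at least 2-fold apart, and among named genes THP1 was lost and SUS1 and ACL4 gained. Deviations of same-numbered samples correlated at -0.02, 0.07 and 0.16. Of the sac3∆ samples, replicates 2 and 3 but not 1 correlated best with their own number, and of the cdk8∆ samples only replicate 3. The labels do not say what the numbers stand for, and they were not taken to pair the samples. Of 325 named genes, 304 kept their side of the threshold and direction in every alternative that tested them. Of these 325, 315 were called, and most were picked for low adjusted p or large differences. That count therefore does not measure how steady the calls are over all features. List medians turned sign under equal totals for TREX-2, SAGA, the respiratory chain, iron and copper genes and amino acid uptake, and under quantile normalization for alpha-cell markers, the respiratory chain and nitrogen genes. They also turned for the respiratory chain with medians set equal and, together with small nuclear and nucleolar RNAs, without sac3∆ replicate 1 or cdk8∆ replicate 1 or 3, for the Mediator head, middle and tail without sac3∆ replicate 3, and for alpha-cell markers, meiotic and nitrogen genes with a filter at 10 RPKM. Depth limits scarce genes, and in which direction the transcriptome as a whole moved cannot be told apart from the scaling of the table.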
